A study of Rattus norvegicus with 24 samples.

Results

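Cross A and cross B were compared in the core of the nucleus accumbens (NAc core) of male F1 rats, in the 8 of 24 libraries whose labels give that region. The other 16 libraries came from the ventral tegmental area (VTA) and the NAc shell, 8 from each. In cross A the father was F344 (Fischer) and the mother BN (Brown Norway), and in cross B the strains of the parents were exchanged. The comparison addressed whether gene expression differed between the crosses, because the study had examined nicotine self-administration in both kinds of F1 rats. The paper reports that cross A was inclined to self-administer nicotine and cross B was not. It adds that passive infusions brought all rats to the same number per session. An effect of which parent contributed which strain therefore cannot be told apart here from the difference in self-administration. This holds for every comparison of the crosses below.

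Each cross contributed 4 rats, and a rat contributed 1 library to the region. Rats 1 and 2 of cross A and rats 3 and 4 of cross B had received nicotine (0.4 mg/kg, daily for 4 days), and their RNA was prepared in batch E for cross A and batch F for cross B. Rats 11 and 15 of cross A and rats 13 and 16 of cross B had received saline on those days, and all 4 were prepared in batch G. The protocol then gave 8 rats intravenous nicotine (30 µg/kg per infusion, 10 infusions per day for 6 days), which are read here as the 8 rats sequenced, so that the saline-injected rats are not taken as animals without nicotine. Tissue was taken on day 15. Libraries are named below by cross and rat number. Cross and batch cannot be told apart in the nicotine-injected rats, whereas the batch G rats compare the crosses inside 1 batch and 1 injection.

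Reciprocal F1 rats of inbred strains carry the same autosomal alleles and differ in the parent that transmitted each of them. Male F1 rats also differ between crosses in the strain of the X chromosome and the mitochondria, which come from the mother, and in the strain of the Y chromosome, which comes from the father. At imprinted genes only the allele of one parent is expressed, so that reciprocal crosses express different strain alleles. The accumbens core receives dopamine input from the VTA and is known for its part in cue-driven drug seeking. The deposited table lists Ensembl IDs without symbols, and 0 of its 17323 IDs were found in the reference gene table used here. Genes are therefore described by level, size and direction of the difference, and no values for accumbens markers or for X-linked, Y-linked, mitochondrial or imprinted genes are given.

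The 8 libraries held 17563458 to 20480697 estimated counts, and the totals of the crosses did not differ detectably (two-sided exact permutation test, p = 0.714, n = 4 per cross, a design that can reach 0.0286). Log2 expression correlated across genes with a Pearson's r of 0.984 to 0.988 between cross A libraries, 0.988 to 0.990 between cross B libraries and 0.984 to 0.989 between libraries of different crosses, as a description over genes that are not independent. On principal components of the 500 most variable genes, the crosses overlapped on the first (18.2% of the variance). On the second (17.7%) the 4 cross A libraries lay between 0.15 and 28.7 and the 4 cross B libraries between -20.4 and -1.66, with A 15 and B 4 nearest to each other. Among 14194 genes at a mean of 1 CPM (counts scaled to a library of 1000000) or more, library A 1 held the highest of the 8 values for 20.1% of genes and library A 15 the lowest for 18.4%. At the other end, library B 3 held the highest value for 6.78% and the lowest for 7.74%.

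Genes were tested with edgeR's quasi-likelihood test, with Benjamini-Hochberg adjustment over 16289 genes. In NAc core 3 genes passed an adjusted p of 0.05, which was 0.0184% of those tested. Expression in cross A was higher for 2 of them and lower for 1. The count depended on the tool and on single libraries: DESeq2 called 60 genes (18 higher, 42 lower), and edgeR called 1 without A 2, B 3, B 4 or B 16. Batches E and F each held a single cross. With preparation batch as a covariate the cross difference was therefore estimated from the batch G rats alone, with the spread taken from all 8 libraries. In that fit none of the 3 calls remained, although the direction of each was kept. The 2 genes called in it were both among those called in the batch G rats described further on. Its directions and sizes are thus no result apart from that of the batch G rats. At an unadjusted p under 0.05, the level at which the study listed its genes, the share was 9.36%, with 4.71% of all tested genes higher and 4.64% lower in cross A. In 2.5% of the tested genes the lowest cross A library exceeded the highest cross B library, and in 2.9% the reverse held. The following genes were taken from the lists of smallest p with such separate libraries, 2 in each direction.

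ENSRNOG00000022595 was present in cross A and not detected in cross B. Libraries A 1, A 2, A 11 and A 15 held 45, 46, 57 and 59 counts. Libraries B 3, B 4, B 13 and B 16 held 0 counts each. Cross A averaged 2.71 ± 0.231 CPM (SD, n = 4), at least 17.1-fold above the level that 3 counts per library would give in cross B (edgeR adjusted p = 0.00299). With preparation batch as a covariate the edgeR adjusted p was 0.0825, and the call was lost. In that fit the cross difference came from the batch G rats alone. These held 57 and 59 counts in A 11 and A 15 and 0 in B 13 and B 16. It was the 1 gene of those tested with 0 counts in every cross B library and at least 10 counts in every cross A library, and 0 genes showed the opposite arrangement.

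ENSRNOG00000006761 was higher in cross A and had little spread within either cross. Its normalized expression was 54.9, 53.3, 57.0 and 57.5 CPM in libraries A 1, A 2, A 11 and A 15. In libraries B 3, B 4, B 13 and B 16 it was 39.2, 40.3, 42.0 and 40.2 CPM. The lowest cross A library lay above the highest cross B library, with 934 to 1154 counts against 711 to 824 counts per library. Cross A was 1.38-fold higher, or 0.46 ± 0.06 on the log2 scale (SE; edgeR adjusted p = 0.0465). The call was lost whichever library was left out, while the log2 fold change stayed between 0.44 and 0.48. With preparation batch as a covariate it was 0.48 ± 0.09 (SE; edgeR adjusted p = 0.135).

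ENSRNOG00000002592 was lower in cross A. Libraries A 1, A 2, A 11 and A 15 held 6.64, 9.87, 10.8 and 8.43 CPM, and libraries B 3, B 4, B 13 and B 16 held 18.1, 20.5, 25.7 and 19.5 CPM. Every cross B library exceeded every cross A library, whichever injection the rat had received. Cross A averaged 8.93 ± 1.81 CPM, against 20.9 ± 3.30 CPM for cross B (SD, n = 4 each), so that cross A was 2.34-fold lower, or -1.23 ± 0.16 on the log2 scale (SE; edgeR adjusted p = 0.0395). In the fits without 1 library the log2 fold change lay between -1.33 and -1.11, and the call was lost in 6 of the 8. With preparation batch as a covariate the log2 fold change was -1.23 ± 0.23 (SE; edgeR adjusted p = 0.135).

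ENSRNOG00000002537 came second among the genes lower in cross A without passing the adjusted threshold. Libraries A 1, A 2, A 11 and A 15 held 12, 15, 35 and 16 counts, and libraries B 3, B 4, B 13 and B 16 held 65, 77, 71 and 61 counts. Library A 11 stood at 1.74 CPM, between the other cross A libraries at 0.705 to 0.798 CPM and the cross B libraries at 3.23 to 3.88 CPM. Cross A was 3.55-fold lower (-1.83 ± 0.31 on the log2 scale, SE; edgeR adjusted p = 0.191). Without library A 11 the log2 fold change was -2.24 and the edgeR adjusted p was 0.0312.

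**Figure D1:**
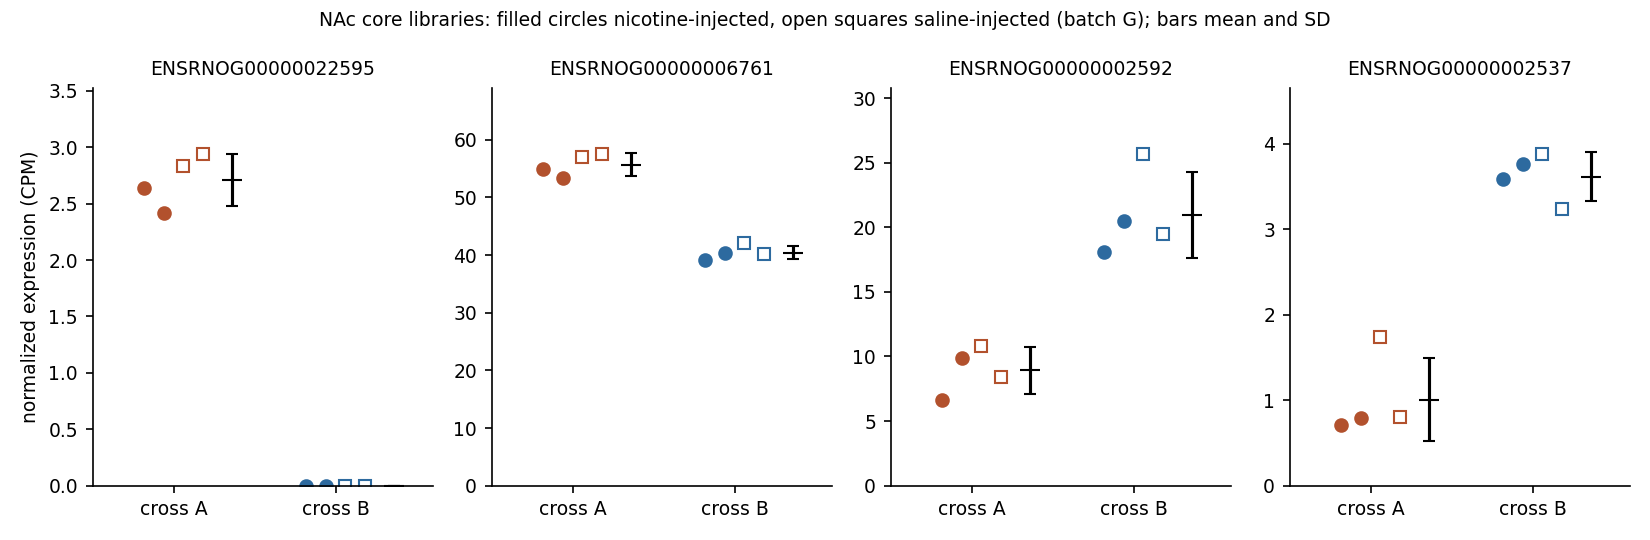
Normalized expression (CPM, vertical axis starting at 0) of 4 genes in the 8 NAc core libraries; each point is 1 library, filled circles are nicotine-injected rats, open squares are saline-injected rats of batch G, and bars give mean and SD of 4 libraries. In each panel the 4 cross A points lie on one side of the 4 cross B points, and ENSRNOG00000022595 is at 0 in cross B.

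The remaining 8 genes of smallest p among those with all cross A libraries above cross B rose by 1.21-fold to 1.72-fold, with a median of 1.32-fold and mean levels of 17.4 to 284.7 CPM. None of these 8 passed the adjusted threshold of edgeR, with adjusted p from 0.191 to 0.318. The corresponding 8 genes with all cross A libraries below cross B had differences of 1.23-fold to 3.69-fold and a median of 1.50-fold, at mean levels of 1.88 to 169.8 CPM (edgeR adjusted p from 0.194 to 0.308). DESeq2 called 17 of the 20 genes, including all 8 of these upward genes, and gave no adjusted p for the other 3. These genes were ranked by the same 8 libraries, so the values describe them and are no further test.

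Over all genes at an unadjusted p under 0.05, differences were small in both directions. The median was 1.23-fold among the 768 genes higher in cross A and 1.26-fold among the 756 lower in cross A. The middle of the distribution ran from 1.15-fold to 1.41-fold for the former and from 1.18-fold to 1.45-fold for the latter, as lower and upper quartiles. A difference of 2-fold or more was found for 58 of the higher and 76 of the lower genes. Cross A libraries lay entirely outside the range of cross B for 37.9% of the 768 higher and 47.0% of the 756 lower genes, against 2.5% and 2.9% of all tested genes in these directions, by the same values that gave the p. With median-ratio size factors in place of the TMM scaling of edgeR, 702 genes were higher and 825 lower, and the median log2 fold change of all tested genes was 0.0045 with those factors against 0.01 with TMM.

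The share of genes at an unadjusted p under 0.05, and the median fold among them, varied with expression level. For this, genes were divided by their mean over the 8 libraries. Below 1 CPM, 4.58% of 2095 genes had an unadjusted p under 0.05, with a median of 3.31-fold among them. From 1 to 10 CPM the share was 7.83% of 4179 genes and the median 1.54-fold. From 10 to 100 CPM it was 10.6% of 7539 genes and 1.22-fold, and at 100 CPM and over 12.4% of 2476 genes and 1.14-fold. The share thus rose and the median fold fell with level. The spread between libraries of 1 cross fell too, with a median SD of 0.38 on the log2 scale in the lowest class and 0.09 in the highest. The medians cover only genes past the threshold, which smaller differences pass where the spread is smaller. Both trends are therefore no measure of how the cross differences themselves depend on level. At 100 CPM and over, 170 genes were higher and 136 lower in cross A, and below 1 CPM 43 were higher and 53 lower.

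**Figure D2:**
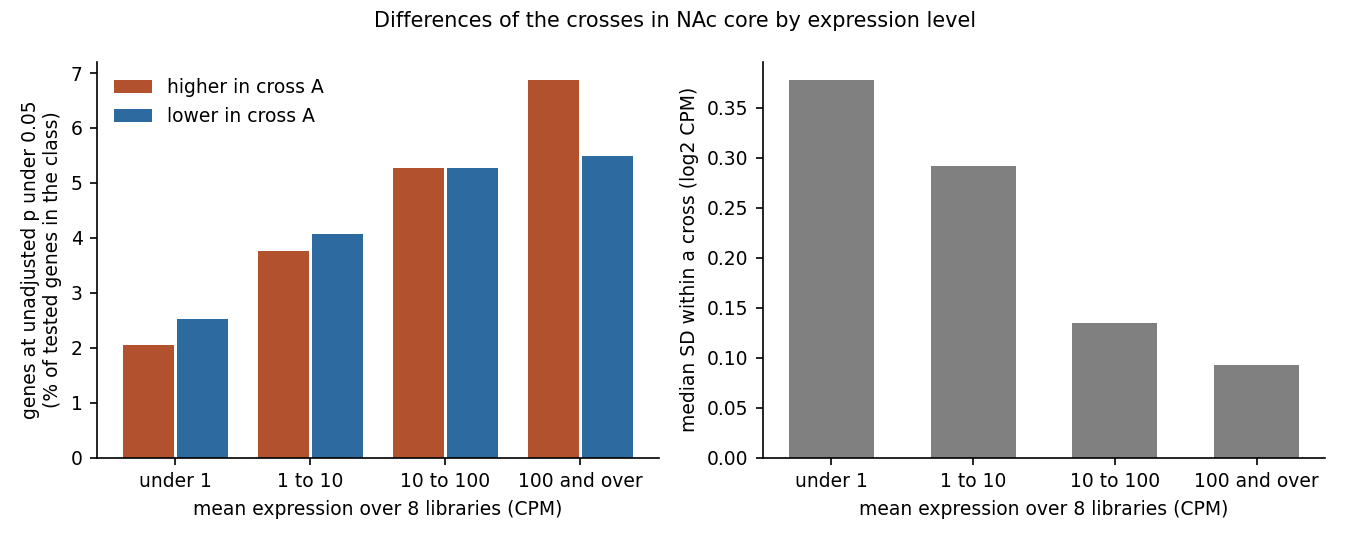
Left, share of tested genes at an unadjusted p under 0.05 (percent, vertical axis) higher or lower in cross A, in 4 classes of mean expression over the 8 libraries (CPM, horizontal axis); right, median SD of log2 CPM within a cross in the same classes. The shares rise from 2.05% and 2.53% below 1 CPM to 6.87% and 5.49% at 100 CPM and over, while the SD falls from 0.38 to 0.09.

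The batch G rats compared the crosses with 2 libraries each inside 1 preparation batch. In them 8.22% of the 16289 genes had an unadjusted p under 0.05 and 3 genes, or 0.0184%, had an adjusted p under 0.05. All 3 held 0 counts in at least 2 libraries and more than 100 in others, and none of them was among the 3 genes called over all 8 libraries. The first held 460 and 320 counts in A 11 and A 15 and 0 in both B 13 and B 16, but among the nicotine-injected rats it held 429 and 70 counts in cross A against 214 and 369 in cross B. The second held 208 and 207 counts in A 11 and A 15 and 0 in all 6 other libraries. The third held 0 counts in A 11 and A 15 and 115 to 222 counts in the other libraries. Leaving out 1 of the 4 libraries moved the batch G counts, to 0 genes at an adjusted p under 0.05 without B 13, 39 without A 15 and 444 without A 11. In none of the 3 genes did the nicotine-injected rats show the difference seen in batch G. In NAc core 50 tested genes held 0 counts in 1 library or more and at least 100 in another. Counts of near-identical genes are divided by estimation when reads fit several transcripts, and the part of that step in these values was not tested.

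ENSRNOG00000006761 had a log2 fold change of 0.48 ± 0.10 (SE) in the batch G rats and 0.43 ± 0.10 in the nicotine-injected rats. For ENSRNOG00000002592 the values were -1.23 ± 0.21 and -1.23 ± 0.21, and for ENSRNOG00000002537 -1.48 ± 0.45 and -2.30 ± 0.43. In the batch G rats the edgeR adjusted p was 0.394, 0.316 and 0.553 for the 3 genes in that order, and for ENSRNOG00000022595 it was 0.278. The difference of ENSRNOG00000002592 was thus as large inside batch G as over all 8 libraries, on which it had been chosen. An interaction of cross and injection was not detected for these 3 genes (edgeR adjusted p = 0.984, 1.00 and 0.871).

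The nicotine-injected rats are other animals than the batch G rats, which allowed directions to be set side by side. In the nicotine-injected rats 7.07% of genes had an unadjusted p under 0.05 and 19 genes, or 0.117%, an adjusted p under 0.05, of which 8 were higher and 11 lower in cross A. Of these 19, 13 had the same direction in the batch G rats, and 1 also had an unadjusted p under 0.05 there. That gene was ENSRNOG00000022595. The other 18 thus rested on the rats in which cross and batch cannot be told apart.

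Starting from the batch G rats, 66.0% of the 1339 genes at an unadjusted p under 0.05 had the same direction in the nicotine-injected rats, against 55.0% of all tested genes. For the 585 genes lower in cross A in batch G the share was 74.5%, and for the 754 genes higher it was 59.4%. Among all genes with a value below 0 in batch G it was 55.1%, and among those above 0 it was 54.9%. The share of the lower genes rested on single libraries: it was 55.0% without A 15 and 62.2% without B 13, against 71.2% without A 11 and 73.4% without B 16. For the higher genes the 4 values lay between 54.9% and 63.7%.

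Both sets of rats gave an unadjusted p under 0.05 in the same direction for 140 genes, which were 10.5% of the batch G genes and 12.2% of the nicotine-injected genes. Another 38 had an unadjusted p under 0.05 in both with opposite directions. Of all 16289 tested genes, 716 reached that level in the nicotine-injected rats with the direction of batch G, and 435 with the opposite direction. Of the 140, 44 were higher and 96 lower in cross A, with a median level of 47.8 CPM. The median difference, over the 136 with more than 3 counts in at least 1 library of each cross, was 1.39-fold in the batch G rats and 1.27-fold in the nicotine-injected rats. Genes lower in cross A were the larger part of those seen in both sets. The batch G rats alone gave 754 higher and 585 lower genes, and the nicotine-injected rats alone 522 higher and 629 lower. The split of the 140 is not given for other fits. The share of lower genes that kept their direction, given above, rested on single libraries.

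**Figure D3:**
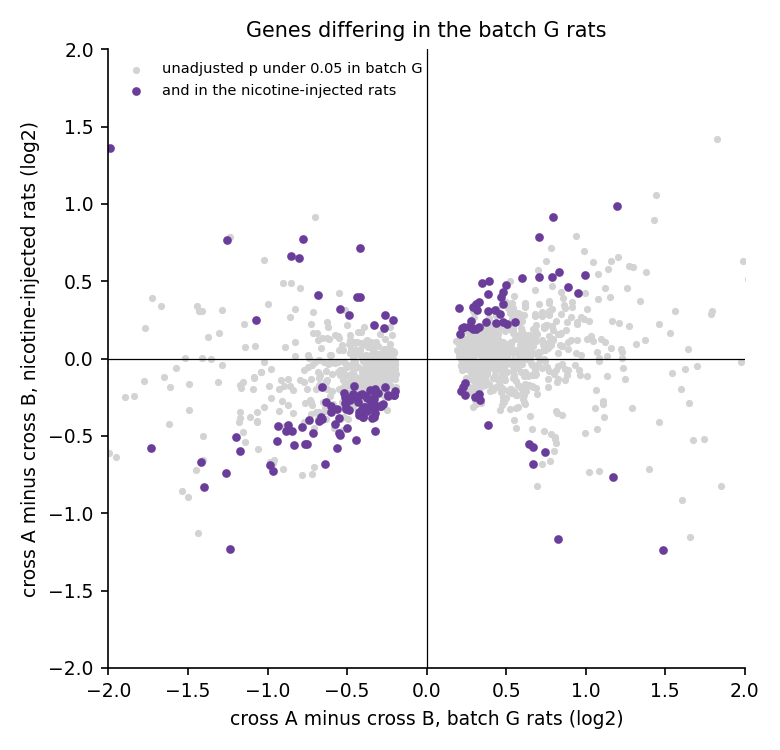
Log2 fold change between the crosses (A over B) in the batch G rats (horizontal axis) and in the nicotine-injected rats (vertical axis) for genes at an unadjusted p under 0.05 in batch G; each point is 1 gene, purple points reached that level in the nicotine-injected rats as well, and 87 of the 1339 genes lie outside the limits of 2. The purple points are densest in the lower left quadrant, where 96 genes were lower in cross A in both sets.

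The difference of the crosses was also tested for dependence on the injection, which is at the same time a contrast of batches. An unadjusted p under 0.05 was found for 5.89% of genes and an adjusted p under 0.05 for 1 gene, or 0.00614%. This was the last of the 3 genes described for batch G, with 0 counts in A 11 and A 15, 173 and 222 counts in A 1 and A 2, and 115 to 186 counts in the 4 cross B libraries. In the batch G rats cross A lay below cross B, whereas in the nicotine-injected rats the log2 fold change was 0.45 ± 0.26 (SE). The interaction was 10.7 log2 units in the fit (edgeR adjusted p = 0.00697). That value depends on how counts of 0 are handled and is no measure of size.

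In the NAc shell of the same rats 4.0% of the tested genes had an unadjusted p under 0.05 for the cross. ENSRNOG00000022595 held 49, 27, 49 and 38 counts in shell libraries A 1, A 2, A 11 and A 15 and 0 in the 4 cross B libraries. It was the 1 gene called in the shell (edgeR adjusted p = 0.0294). Cross and batch are tied in the nicotine-injected rats there as in the core. ENSRNOG00000002592 had 11.9, 13.0, 16.2 and 16.5 CPM in those of cross A and 30.7, 29.7, 20.1 and 22.4 CPM in those of B 3, B 4, B 13 and B 16, so the crosses did not overlap there either. Its log2 fold change of -0.84 ± 0.16 in the shell (SE; edgeR adjusted p = 0.745) did not pass adjustment there and was not detectably different from that in the core (interaction -0.40 ± 0.24, edgeR adjusted p = 1.00).

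ENSRNOG00000006761 differed little in the shell, with means of 46.4 ± 4.65 CPM for cross A against 42.5 ± 4.36 CPM for cross B (SD, n = 4 each). The crosses overlapped, and the log2 fold change was 0.13 ± 0.09 (SE). The difference of the core exceeded that of the shell by 0.32 ± 0.11 on the log2 scale, with an unadjusted p of 0.00981 that did not pass adjustment in edgeR (adjusted p = 1.00). ENSRNOG00000002537 averaged 0.961 ± 0.548 CPM in shell libraries of cross A, against 3.97 ± 1.54 CPM in those of cross B (SD, n = 4 each), a difference of -2.05 ± 0.42 on the log2 scale (SE; edgeR adjusted p = 0.982).

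The genes ranked first in the core kept their direction in the shell. All 10 of the lower genes with the smallest p were below 0 in the shell, and 8 of them had an unadjusted p under 0.05 there. All 10 of the higher genes were above 0 in the shell, and 2 of them had an unadjusted p under 0.05. Over all tested genes 62.9% had the same direction in core and shell, and 4.0% had an unadjusted p under 0.05 in the shell. The median log2 fold change of the lower genes was -0.72 in the core and -0.53 in the shell, and that of the higher genes was 0.43 and 0.12. The lower genes thus also had larger differences in the core, and the difference between the directions was not tested. Core and shell libraries come from the same rats and are not independent. The interaction of cross and region gave an unadjusted p under 0.05 for 2.19% of all genes and for 5 of these 20, of which 4 were among the higher genes, and no gene passed adjustment (smallest edgeR adjusted p = 1.00). The 20 genes were ranked by the core values that enter this interaction, so nothing is read from their count.

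Of the 140 genes seen in both sets of core rats, 132 had the same direction in the shell, comprising 92 of the 96 lower and 40 of the 44 higher genes, against 62.9% of all tested genes. Of these, 45 had an unadjusted p under 0.05 in the shell, against 4.0% of all tested genes in either direction.

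In the VTA the library labelled A 2 stood apart from cross A at 2 of the 4 genes. It and the VTA library of B 16 were prepared in batch L, unlike the core and shell libraries of the same rats, while the other VTA libraries were in batches E, F and G as in the core. It held 0 counts of ENSRNOG00000022595, whereas A 1, A 11 and A 15 held 60, 52 and 65 counts and all 4 cross B libraries 0, so it lay with cross B. For ENSRNOG00000002592 it held 14.9 CPM, above the cross B libraries at 9.46 to 12.1 CPM, whereas A 1, A 11 and A 15 held 6.30, 6.43 and 7.23 CPM. At ENSRNOG00000006761 and ENSRNOG00000002537 it lay within the range of the other cross A libraries, at 90.3 and 3.27 CPM. The library labelled A 2 therefore went against its label at ENSRNOG00000022595 and ENSRNOG00000002592, and VTA values are given with and without it.

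An unadjusted p under 0.05 for the cross was found in the VTA for 5.7% of genes with all libraries and for 7.25% without the library labelled A 2. ENSRNOG00000002592 had a log2 fold change of -0.31 ± 0.28 (SE) with it and -0.69 ± 0.14 without it. ENSRNOG00000006761 had values of -0.03 ± 0.18 and -0.07 ± 0.19, and ENSRNOG00000002537 of -0.39 ± 0.38 and -0.53 ± 0.40. Without the library labelled A 2, 7 of the 10 lower and 4 of the 10 higher genes kept the direction of the core, with 2 and 1 of them at an unadjusted p under 0.05. With it the numbers were 4 and 6, with 0 and 1 at that level. Of the 140 genes seen in both sets of core rats, 85 had the direction of the core in the VTA without the library labelled A 2, against 48.3% of all tested genes. These were 62 of the 96 lower and 23 of the 44 higher genes. With that library 50 of the 140 had the direction of the core, and no share of all tested genes is given for that fit. The library was set aside because it went against its label at 2 genes ranked by the core. Nothing is therefore read from the changes between the fits with and without it.

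The interaction of cross and region for the core and the VTA gave an unadjusted p under 0.05 for 9.15% of genes, and for 4 of the 10 higher and 6 of the 10 lower genes. Without the library labelled A 2 the share was 10.3%, with 5 of the higher and 6 of the lower genes. The ranking used the same core values here too, and nothing is read from these counts. No gene passed adjustment in either fit, with smallest edgeR adjusted p of 0.459 and 0.430. For ENSRNOG00000006761 the cross difference in the core exceeded that in the VTA by 0.48 ± 0.19 on the log2 scale (SE, edgeR adjusted p = 0.483). Without that library it did so by 0.53 ± 0.20 (edgeR adjusted p = 0.444). For ENSRNOG00000002592 the interaction was -0.93 ± 0.35 (edgeR adjusted p = 0.477) with the library and -0.54 ± 0.22 without it (edgeR adjusted p = 0.461). For ENSRNOG00000002537 it was -1.45 ± 0.50 with the library (edgeR adjusted p = 0.461) and -1.30 ± 0.51 without it (edgeR adjusted p = 0.451).

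**Figure D4:**
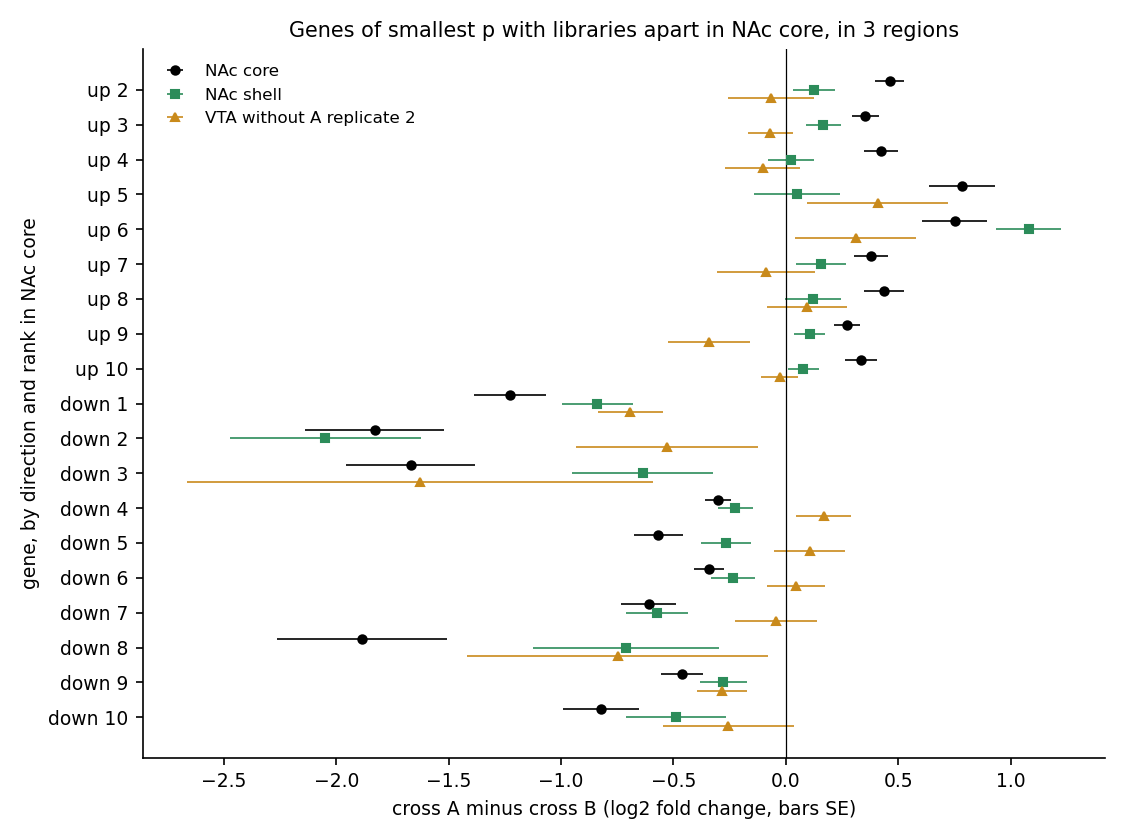
Log2 fold change of cross A over cross B with SE (horizontal axis) for 19 genes, ordered by direction and rank of p in NAc core (vertical axis), in NAc core, NAc shell and VTA, the last without the library labelled A 2; the first higher gene, at 0 counts in cross B, is left out. All shell points lie on the side of the core points, with medians of 0.12 for the 10 higher and -0.53 for the 10 lower genes, and the VTA points lie on both sides of 0.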

How the data were processed

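RNA was sequenced from NAc core, NAc shell and VTA of 8 rats. Reads were trimmed by the authors with fastp 0.20.0, quantified with Salmon 0.12.0 against Rnor 6 and summed to genes with tximport. The values were deposited as estimated counts per gene, as whole numbers without normalization, and each of the 24 columns carries the title of its sample. Reads of F344 alleles differ from the BN-derived reference, and the effect on the counts was not tested. Replicates are separate rats.

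Groups were taken from the labels. The filter kept genes whose normalized count exceeded 10 in 3 or more of the 24 libraries (16289 of 17323). They were tested with edgeR 4.0.16 under R 4.3.3 with TMM scaling, a quasi-likelihood F test and Benjamini-Hochberg adjustment. All tests were two-sided, and SEs are the size of the log2 fold change divided by the root of F. CPM are counts scaled to a TMM-adjusted library of 1000000. SDs within a cross and correlations used log2(CPM + 0.5). A count of 0 was read as up to 3 counts, which covers counting error only. The fits were tested on simulated counts. Within NAc core, 2 libraries of 1 cross differed by more than sampling noise in each pair (chi-square over degrees of freedom of 5.17 or more).

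The comparison, the tests and the rule for the genes shown were chosen with earlier results of these data known. The rule ranked genes by p among those whose cross A libraries lay outside the range of cross B. As the deposited IDs were not paired with symbols, 2 IDs that rose and 2 that fell are printed. Counts of gene lists, chromosome groups and cell type markers were made with names from the study's supplementary tables and seen, but they are not reported, since those tables were not used as a source of names. The alternatives tried were median-ratio size factors, DESeq2 1.42.0, filterByExpr, no filter, injection or batch as a covariate, each injection alone, a replicate block for the rat, and leaving out single replicates. Libraries of 1 rat in different regions are paired by the animal. Deviations of paired libraries from their group means correlated at -0.105 to 0.124 between core and shell and -0.011 to 0.177 between core and VTA.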

Additional observations from a re-analysis of the deposited data

Results flagged for a closer look

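Per-library totals, numbers of genes with a count, 2 principal components and the CPM of the 4 genes shown were compared within each cross by Dixon's ratio, in 15 sets of 4 libraries, of which 0.75 would have a library apart by chance. In 1 set a library lay apart: ENSRNOG00000002537 was 1.74 CPM in library A 11, against 0.705 to 0.798 CPM in the other cross A libraries. The cross difference of 1 gene depended on the injection (interaction of 10.7 log2 units, edgeR adjusted p = 0.00697), through 0 counts in A 11 and A 15 alone, and this interaction cannot be told apart from a contrast of preparation batches.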

How the results depend on the processing

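ENSRNOG00000022595, ENSRNOG00000006761, ENSRNOG00000002592 and ENSRNOG00000002537 kept their direction in all 62 alternative fits that gave them an adjusted p, and their calls were lost in 24 and gained in 1. Their adjusted p ranged from 0.00212 to 0.278, 2.30e-06 to 0.394, 2.89e-09 to 0.316 and 0.0312 to 0.676, with the highest among saline-injected rats alone for the first 3 genes and without B 16 for the fourth. DESeq2 called 60 genes in NAc core (18 higher, 42 lower in cross A), 83 in batch G, 47 in the nicotine-injected rats (726 at unadjusted p), 17 for the interaction with injection, and 2 and 24 for the interactions with shell and VTA. Of its 60 calls, 2 were shared with edgeR, 55 had separate libraries and all 60 had an unadjusted p under 0.05 in edgeR, and 4124 genes had no adjusted p in DESeq2. With batch as a covariate edgeR gave 2 calls, neither of them among the 3, whose adjusted p was then 0.0825, 0.135 and 0.135. The cross difference came from the batch G rats alone in that fit. The nicotine-injected rats alone gave 19 calls. With 1 replicate left out, calls ranged from 1 to 3 in NAc core (1 without A 2, B 3, B 4 or B 16), 0 to 444 in batch G (444 without A 11, 39 without A 15, 0 without B 13), 61 to 339 in the nicotine-injected rats (339 without A 2) and 1 to 12 for the interaction with injection (12 without A 15). Counts at unadjusted p ranged from 1129 to 1750 in NAc core, 540 (without B 13; 579 without B 16) to 2613 (without A 11) in batch G, 725 (without B 4) to 2361 (without A 2) in the nicotine-injected rats and 636 (without B 3) to 1647 (without A 11) for the interaction with injection. They ranged from 346 to 543 (without rat 15) for the interaction with shell and from 864 (without rat 13; 950 without rat 3) to 2294 (without rat 11) for that with VTA. Where 1 library of a cross remained, it was assumed to vary like the others. The paired fits, with the rat as a replicate block, gave 0 calls for shell and VTA, with 339 and 1511 genes at unadjusted p against 357 and 1490, and changed no call. Without the library labelled VTA A 2 the latter was 1676. Alternatives for gene lists and chromosome groups, which were made with names from the study's supplementary tables, are not reported. The shares of batch G genes with the same direction in nicotine-injected rats under other fits were added after seeing the data. The causes of these changes were not tested.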
